A study of Mus musculus with 8 samples.

Results

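Immunoglobulin transcripts were measured in RNA from the distal lung of mice with 2 forms of the nicotinic α7 receptor, with and without exposure to cigarette smoke (CS). The genes were taken by symbol from the table of 22756 genes: every symbol that begins with the names of the heavy chain constant and V genes, the kappa genes or the lambda genes, and the J chain gene Igj. This gave 149 genes, of which 148 were immunoglobulin genes: 4 heavy chain constant genes (Ighm, Ighg, Ighg1 and Ighg2c), 37 heavy chain V genes, the kappa constant gene Igkc, 100 kappa V genes, the lambda constant genes Iglc2 and Iglc3, 3 lambda V genes and Igj. The remaining gene was Ighmbp2, a helicase gene on chromosome 19 that shares only its first letters with the heavy chain genes, and it is counted with none of the groups below. Igha and Ighd are not among the gene names, so IgA and IgD were not analysed here.

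The α7G mice carry a tauGFP reporter cassette behind Chrna7, the gene of the α7 receptor, and the α7E260A:G mice carry the E260A point mutation of the receptor on that same reporter background, so that all 4 groups have the reporter. Both lines were labelled as more than 90 percent C57BL/6. Each genotype was held in room air (control) or given side-stream CS on 5 days a week for 4 months, and each of the 4 groups has 1 male and 1 female library, 8 in all. The cells were lung interstitial cells from which cells with the leukocyte antigen CD45 had been removed by magnetic beads. The number of mice in a library and their age are not given in the sources used here, so differences between libraries of a group cannot be divided into those of animals and those of sex or preparation.

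B cells and the plasma cells that arise from them are the cells that make antibodies. In a developing B cell a single V gene is joined by recombination to D and J segments at the heavy chain locus, and another V gene to a J segment at the kappa or lambda locus, and the sequence at the joints, which counts per gene do not hold, marks the clone. Unrelated clones often use the same V gene, so V gene usage describes a population of cells and not a clone. The heavy chain constant gene sets the isotype: IgM comes first, and switching later replaces it with an IgG, IgE or IgA constant gene. Plasma cells hold far more immunoglobulin mRNA than resting B cells do, and the J chain joins IgM and IgA units into polymers. In lung tissue these transcripts come from resident and circulating B cells, from plasma cells around airways and from blood left in the tissue, and in RNA from bulk cells a change in the number of such cells cannot be told apart from a change in the RNA of each cell.

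The sequences show how far a count can be given to a single V gene. Ighv8-11 and Ighv8-12 are shown because the first separated the genotypes and the second led the heavy V genes of 1 library. Their exons are taken from the mm9 mouse genome (C57BL/6 reference) with GENCODE M1 limits, and capitals mark the 21 of 295 aligned bases at which they differ, so that they are 92.9% identical.
Ighv8-11, chr12:116805376-116805671, minus strand: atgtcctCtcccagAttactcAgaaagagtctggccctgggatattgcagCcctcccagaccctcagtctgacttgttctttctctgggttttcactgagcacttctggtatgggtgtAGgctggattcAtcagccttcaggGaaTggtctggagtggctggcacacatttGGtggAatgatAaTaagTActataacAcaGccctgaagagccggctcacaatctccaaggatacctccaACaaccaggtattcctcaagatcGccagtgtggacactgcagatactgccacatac
Ighv8-12, chr12:116886172-116886466, minus strand: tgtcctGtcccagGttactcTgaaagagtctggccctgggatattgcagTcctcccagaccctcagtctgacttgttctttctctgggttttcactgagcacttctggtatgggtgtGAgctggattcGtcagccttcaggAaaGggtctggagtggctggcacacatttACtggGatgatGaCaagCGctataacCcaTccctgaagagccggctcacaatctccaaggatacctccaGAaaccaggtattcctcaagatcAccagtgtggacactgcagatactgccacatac
Ighv1-43 and Ighv1-42 are neighbours of the Ighv1 family that took opposite shares in the 2 genotypes. Capitals mark the 9 of 294 bases at which they differ, and the exons are 96.9% identical.
Ighv1-43, chr12:116184161-116184454, minus strand: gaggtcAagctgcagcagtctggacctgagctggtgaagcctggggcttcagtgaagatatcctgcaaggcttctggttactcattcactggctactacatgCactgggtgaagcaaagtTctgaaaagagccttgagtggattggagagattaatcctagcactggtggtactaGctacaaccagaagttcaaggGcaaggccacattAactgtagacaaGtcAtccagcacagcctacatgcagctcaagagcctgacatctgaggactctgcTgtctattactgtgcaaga
Ighv1-42, chr12:116175324-116175617, minus strand: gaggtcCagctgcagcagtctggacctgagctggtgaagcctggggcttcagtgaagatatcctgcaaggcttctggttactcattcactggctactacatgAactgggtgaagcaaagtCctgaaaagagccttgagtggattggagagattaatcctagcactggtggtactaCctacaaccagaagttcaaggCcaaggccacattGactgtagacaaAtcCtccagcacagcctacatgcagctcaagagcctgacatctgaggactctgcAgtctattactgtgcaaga
Among the 113 annotated V exons of the heavy locus, 16 differed from their closest relative at 5 bases or fewer, and 2, Ighv1-62-2 and Ighv1-71, were identical to each other. Of the 102 kappa V exons 3 differed from their closest relative at 5 bases or fewer. Counts of such close genes are uncertain, since reads that fit both can be split or dropped.

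The recombination signal follows the V exon and is cut by the RAG proteins. The last 60 bases of the exon and the signal are shown for V genes that came first or second in a library or separated the genotypes, with the heptamer and the 9 bases at the place of the nonamer in capitals, 23 bases apart at heavy V genes and 12 bases apart at kappa V genes.
Ighv9-3, chr12:115378864-115378962, minus strand: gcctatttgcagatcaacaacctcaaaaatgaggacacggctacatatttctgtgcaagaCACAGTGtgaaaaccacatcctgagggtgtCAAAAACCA
Ighv1-67, chr12:116842112-116842210, minus strand: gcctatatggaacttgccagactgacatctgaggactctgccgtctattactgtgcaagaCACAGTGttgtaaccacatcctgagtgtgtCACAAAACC
Igkv1-110, chr6:68221202-68221289, plus strand: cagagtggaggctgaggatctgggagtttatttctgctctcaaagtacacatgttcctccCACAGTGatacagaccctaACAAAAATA
Igkv6-25, chr6:70165892-70165979, plus strand: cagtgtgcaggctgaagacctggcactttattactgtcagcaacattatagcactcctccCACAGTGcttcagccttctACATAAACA
Igkv8-30, chr6:70067027-70067114, minus strand: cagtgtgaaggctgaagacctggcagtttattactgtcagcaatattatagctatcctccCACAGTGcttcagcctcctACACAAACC
Igkv18-36, chr6:69942431-69942518, minus strand: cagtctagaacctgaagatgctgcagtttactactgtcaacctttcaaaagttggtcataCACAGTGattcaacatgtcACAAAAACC
All 6 have the heptamer CACAGTG directly after the annotated exon, as did 62.8% of the 113 heavy V exons and 74.5% of the 102 kappa V exons, read on the strand of the gene. The nonamer ACAAAAACC was found in full at Igkv18-36. It was present at 25.5% of kappa V exons and 1.77% of heavy V exons at that spacing.

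The libraries held 8020726 to 10944100 counts over coding sequence, and values are given below as RPM, the count divided by the library total and scaled to the same total in all libraries. Of the 148 immunoglobulin genes 126 had a mean count of at least 10 and entered the tests, 30 of 37 heavy V and 85 of 100 kappa V genes among them, and 5 V genes had no count in any library. The epithelial markers Epcam, Cdh1, Krt8, Krt18, Sftpc and Scgb1a1 summed to between 13305.9 and 78958.4 RPM. Leukocyte RNA was present in every library despite the depletion: Ptprc, which encodes CD45, and 4 other leukocyte genes summed to 4686.0 to 5924.1 RPM, and none of the 5 was at 0 in any library.

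A single library held several times more immunoglobulin RNA than any other. They took 1.19% of all counts in the male and 1.12% in the female α7G control library, and 0.986% and 1.57% in the male and female α7G CS libraries. In the α7E260A:G mice they took 0.708% of the male control, 0.538% of the male CS and 0.628% of the female CS library. The female α7E260A:G control library stood at 7.05%, 7.15-fold over the median of the other 7 libraries and 4.49-fold over the highest of them. The other 3 α7E260A:G libraries all lay below the 4 α7G libraries. Results that rest on the female α7E260A:G control library are therefore given with and without it.

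**Figure D1:**
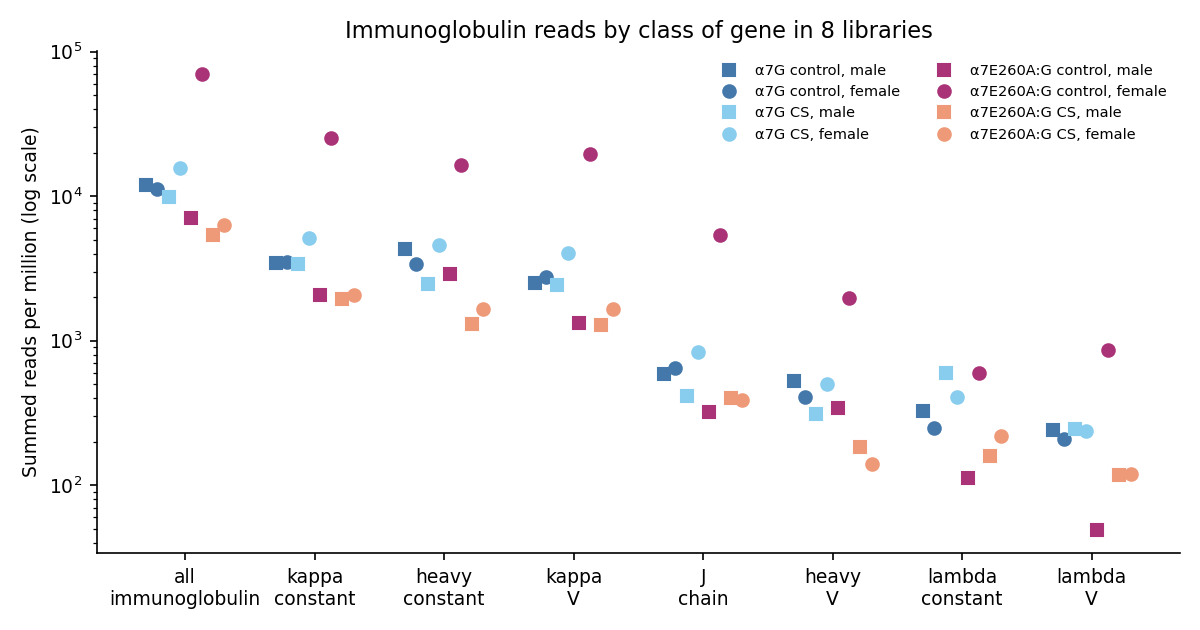
Summed RPM (log scale) of each class of immunoglobulin gene, with 1 point per library (squares male, circles female). The female α7E260A:G control library, at 70534.4 RPM for all immunoglobulin genes, lies above the other 7, which run from 5383.7 to 15719.2 RPM, and the other 3 α7E260A:G libraries lie below the α7G libraries in this sum.

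The excess in that library was spread over most of the genes. It had the highest RPM of the 8 libraries at 97 of the 126 tested immunoglobulin genes (77.0%), against 7.16% of all 13637 genes tested. Its level was above the median of the other libraries at 26 of 30 heavy V genes, 82 of 85 kappa V genes, all 3 lambda V genes and all 8 constant and J chain genes. The fold over that median was 6.55 for the middle heavy V gene and 6.66 for the middle kappa V gene, with single genes from 0.329 (Ighv11-2) to 638 (Ighv8-11) at the heavy locus and from 0.262 (Igkv4-92) to 118 (Igkv4-78) at the kappa locus. Igkv4-78 had 573 counts there and 1 to 9 counts in each other library. The α7G libraries held 2 counts of Ighv8-11 together, so the median behind its fold lay near 0 and the size of that fold is uncertain. The male α7E260A:G control library stood at the other end, with the lowest RPM of the 8 at 63 of the 126 genes.

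Igkc (chr6:70676429-70676751, plus strand), the constant part of all kappa light chains, was the most abundant of these transcripts. It ranked between 12th and 37th of all genes by counts in the other 7 libraries and 3rd in the female α7E260A:G control. In the α7G libraries it was at 3474.4 (male control), 3504.4 (female control), 3404.2 (male CS) and 5117.7 RPM (female CS), and in the α7E260A:G libraries at 2055.7 (male control), 25447.0 (female control), 1936.7 (male CS) and 2078.9 RPM (female CS). Without the female control the 3 α7E260A:G libraries lay close together and below all 4 of the α7G libraries, and their mean was 0.522 of the α7G mean. With it the ratio of the means was 2.03.

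Ighm (chr12:114659078-114660941, minus strand), the constant gene of IgM, was at 2924.2, 1875.9, 2222.7 and 3034.3 RPM in the α7G libraries in the same order, and at 1826.5, 7025.0, 1138.4 and 1367.3 RPM in the α7E260A:G libraries. The 3 IgG genes varied more. Ighg, which lies between Ighg2c and Ighg1 where the RefSeq gene order has Ighg2b, was at 598.0, 637.5, 77.5 and 612.7 RPM in α7G and at 283.5, 4063.9, 71.9 and 109.3 RPM in α7E260A:G. Ighg2c, the IgG2 gene of the C57BL/6 strain, was at 556.0, 821.6, 137.0 and 735.4 RPM in α7G and at 642.0, 4688.6, 74.1 and 154.5 RPM in α7E260A:G. Ighg1 was lowest of the 4, from 14.1 RPM in the male α7E260A:G CS to 207 RPM in the female α7G CS library and 764 RPM in the female α7E260A:G control. The male α7G CS library had about as little of each IgG gene as the α7E260A:G CS libraries, while its Ighm level was within the range of the other α7G libraries.

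The isotype composition therefore differed between libraries of 1 group. Ighm took 68.3% (Wilson interval 67.8 to 68.8%) and 55.5% of the heavy chain constant counts in the male and female α7G controls, and 90.0% and 66.1% in the male and female α7G CS libraries. In α7E260A:G it took 63.5% and 42.5% in the male and female controls, and 87.7% and 82.1% in the male and female CS libraries. In each of the 4 pairs of genotype and sex, the CS library had the larger IgM share. Over both genotypes the 4 control libraries (42.5 to 68.3%) overlapped the 4 CS libraries (66.1 to 90.0%), through the male α7G control and the female α7G CS library. AI324046, an annotated heavy chain constant gene on the minus strand at chr12:114597876-114599443 that the symbol rule did not take, had 15838 counts in the female α7E260A:G control and 95 to 1812 in the others. With it counted, an alternative chosen after seeing the data, the controls ran from 39.05 to 64.98% and the CS libraries from 65.01 to 87.93%, so that the male α7G control and the female α7G CS library changed order and the ranges touched without overlap. The 2 values of the α7E260A:G CS group both lay above those of its control group. With counts divided by coding length the IgM shares were lower, from 37.18 to 87.97%, in the same order of libraries. Intervals cover counting error alone, since reads were not counted as molecules, and at these counts they are far narrower than the spread between libraries of a group.

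**Figure D2:**
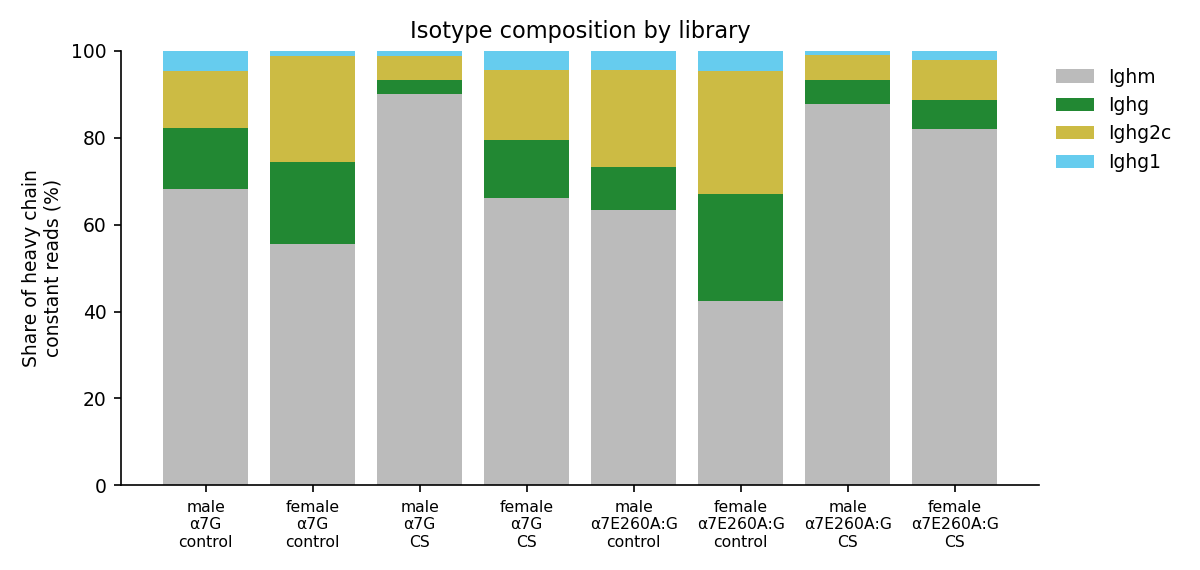
Share (%) of the heavy chain constant counts held by Ighm and the 3 IgG genes in each library, 1 bar per library. The IgM share runs from 42.5% in the female α7E260A:G control to 90.0% in the male α7G CS library, and in each sex and genotype it is larger with CS than without.

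Kappa light chains dominated in all 8 libraries. Iglc2 and Iglc3, of equal coding length, held 8.59% and 6.65% of the light chain constant counts in the male and female α7G controls, 14.9% and 7.37% in the male and female α7G CS libraries, 5.15% and 2.28% in the male and female α7E260A:G controls and 7.62% and 9.56% in the α7E260A:G CS libraries. The female α7E260A:G control thus had the smallest lambda share, and its summed Iglc2 and Iglc3 level, 594 RPM, was near the 598 RPM of the male α7G CS library. From the V genes instead, the lambda share was 9.22% in the male α7G CS library and 4.22% in the female α7E260A:G control, and the smallest was the 3.55% of the male α7E260A:G control. Iglv1 led the 3 lambda V genes in all 8 libraries, with 49.7 to 77.4% of their counts. The share was smallest in the male α7G CS library, where Iglv2 had 32.2%.

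Igj, the J chain gene that plasma cells and their precursors express, was at 584.8, 647.5, 412.7 and 831.6 RPM in the α7G libraries and at 318.6, 5424.1, 399.5 and 389.1 RPM in the α7E260A:G libraries. It was 13.1-fold over the median of the other libraries in the female α7E260A:G control, a larger excess than that of Igkc (7.47-fold) or Ighm (3.74-fold) and below those of Ighg (14.3-fold) and Ighg1 (17.8-fold), while Ighg2c stood at 8.43-fold. Ighmbp2 was at 10.6 RPM in that library and at 11.6 to 21.2 RPM in the others.

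The 5 comparisons below share libraries and are not independent of each other, and their p-values measure the spread between these libraries only. The comparison of the genotypes over both exposures asked whether the immunoglobulin transcripts differed with the E260A mutation. None of the 126 tested genes passed an adjusted p of 0.05 by edgeR, where 0.0953% of all genes tested did, and 13 (8 higher and 5 lower in α7E260A:G) had an unadjusted p under 0.05, which is 10.3% against 11.4% of all genes. DESeq2 called 9 of the 126, 7 higher and 2 lower, where it called 3.78% of all genes. The median log2 fold change of the 126 genes was 0.36, beside 0.03 for all genes tested. Without the female α7E260A:G control library 47 genes passed, 44 lower and 3 higher in α7E260A:G, where 4.74% of all genes passed. The 44 held 30 kappa V, 9 heavy V, 3 lambda V genes and both lambda constant genes, among them Igkv1-110 at a log2 fold change of -1.60 (SE 0.23) and Iglv1 at -1.64 (SE 0.19), but none of the heavy constant genes, Igkc or Igj. Without the male α7E260A:G control instead, 35 genes were called higher and 2 lower, where 3.07% of all genes passed. The fitted difference was above 0 for 96 of the 126 genes without the male control and for 14 without the female control, and 82 genes changed sign between these fits.

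A few V genes did not overlap in RPM between the libraries of the 2 genotypes. Of the 30 tested heavy V genes 4 were higher in all α7E260A:G than in all α7G libraries (Ighv8-11, Ighv1-67, Ighv1-43 and Ighv1-83) and 1 was lower (Ighv1-19). Of these 4, Ighv8-11 and Ighv1-83 passed the filter only through α7E260A:G, the group in which they were higher. Of the 85 tested kappa V genes Igkv18-36 was lower and none was higher, and no constant gene was without overlap. Over all genes tested 2.34% were higher and 5.54% lower without overlap, beside 3.17% and 1.59% of the 126 immunoglobulin genes.

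Ighv8-11 had 0, 0, 0 and 2 counts in the α7G libraries (male and female control, male and female CS) and 45, 1575, 23 and 33 counts in the α7E260A:G libraries in that order. Over pooled counts the ratio was 813 (exact 95% interval 225 to 6720 for counting error), and without the female control library it was 70.2 (18.9 to 588). The edgeR log2 fold change was 8.64 with SE 1.72 and an adjusted p of 0.124, and its size depends on the prior count, as α7G is close to 0. Its neighbour Ighv8-12, whose exon starts 80796 bases away, was counted in every library.

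Ighv1-67 was at 1.92, 1.28, 1.51 and 1.02 RPM in α7G and at 16.8, 131, 7.11 and 5.20 RPM in α7E260A:G, so that the lowest α7E260A:G library lay well above the highest α7G library. The log2 fold change was 4.04 (SE 0.71) with an adjusted p of 0.106. Without the female α7E260A:G control the log2 fold change was 2.82 for Ighv1-67, 6.59 for Ighv8-11 and 1.06 for Igkv6-25. Igkv6-25 overlapped between the genotypes, since its 2 α7E260A:G CS libraries, at 12.3 and 11.9 RPM, lay below all 4 of the α7G libraries. Ighv1-43 was at 0.241, 3.52, 0.466 and 1.58 RPM in α7G and 8.04, 154, 4.61 and 3.65 RPM in α7E260A:G, where the log2 fold change was 3.84 (SE 1.08). Its highest α7G and lowest α7E260A:G libraries nearly touched, at 3.52 and 3.65 RPM. Ighv1-83 was low throughout, at 0.427 to 1.47 RPM in α7G and 1.77 to 15.4 RPM in α7E260A:G, with a log2 fold change of 2.57 (SE 0.70). Its α7G counts alone averaged below the minimum of 10, so it passed the filter only through α7E260A:G. Ighv1-19 was at 51.7, 45.8, 16.3 and 26.3 RPM in α7G and at 1.34, 7.49, 13.5 and 4.42 RPM in α7E260A:G, with a log2 fold change of -2.23 (SE 0.56). Igkv18-36 lay at 2.68 to 4.63 RPM in α7G and 0.553 to 2.12 RPM in α7E260A:G.

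Shares of a library's heavy V counts are free of the total amount of immunoglobulin. By share, 6 of the 30 genes were higher and 2 lower without overlap in α7E260A:G. These numbers were the same without the female control library, but the filter that chose the 30 genes still counted it. A share of V counts is not defined for other genes, so no share over all genes stands beside them. The 6 were Ighv8-11, Ighv1-67, Ighv1-43, Ighv1-83, Ighv1-23 and Ighv1-73, and the 2 were Ighv1-9 and Ighv1-42. Ighv1-23 and Ighv1-73 passed the filter only through the female control library and lay near the floor. Ighv1-23 had at most 0.136% in α7G and at least 0.203% in α7E260A:G, and Ighv1-73 had 0.134% and 0.236%. Ighv8-11, near absent in α7G, and Ighv1-83, low in α7G, passed the filter only through α7E260A:G. Ighv1-67 took 0.342 ± 0.119% of heavy V counts in α7G and 4.77 ± 1.35% in α7E260A:G (SD, n = 4). Ighv1-43 took 0.343 ± 0.364% and 3.82 ± 2.67%, while Ighv1-42, with a start 8837 bases away and the close exon shown above, took 6.74 ± 3.64% in α7G and 1.25 ± 0.709% in α7E260A:G. Ighv1-9 went from 15.5 ± 5.68% to 8.44 ± 1.02%. At the kappa locus none of 85 genes was higher and 2 were lower in share, Igkv4-57 (1.41 ± 0.548% against 0.558 ± 0.227%) and Igkv5-43 (2.34 ± 0.0888% against 1.92 ± 0.143%). The shares of a library sum to the whole, so a gene that takes more leaves less to the others.

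**Figure D3:**
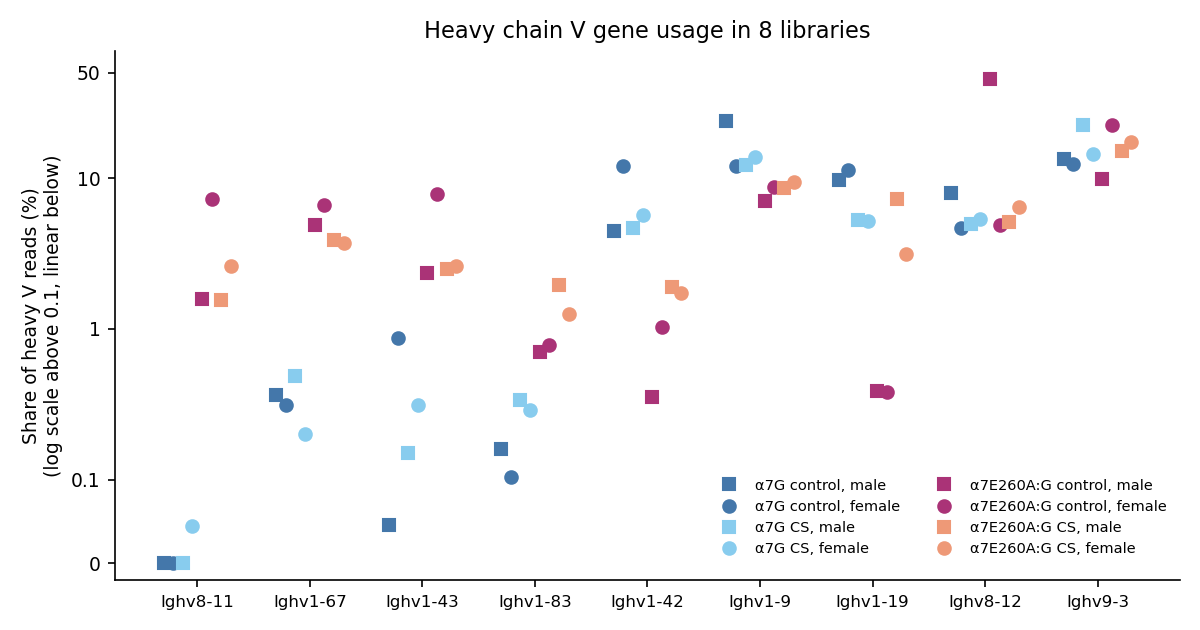
Share (%) of heavy V counts for 9 heavy V genes in each library (log scale above 0.1, linear below). Ighv8-11, Ighv1-67, Ighv1-43 and Ighv1-83 are higher in all 4 of the α7E260A:G libraries, Ighv1-42 and Ighv1-9 are lower, and Ighv8-12 stands at 45.3% in the male α7E260A:G control alone.

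The heavy locus holds further V genes that have only provisional names (Gm) in the annotation and were not taken by the symbol rule. With these counted, 17 of 94 tested heavy V genes were higher and 12 lower in share without overlap, and 0 of 87 kappa V genes were higher and 3 lower. Of the 64 heavy V genes with provisional names, 4 were higher and 10 lower in RPM without overlap, beside 2.34% and 5.54% of all genes. Of 27 other genes tested within 1 Mb of the heavy locus, none was higher and 3 (Btbd6, Ptprn2 and Zfp386) were lower. Zfp386, a zinc finger gene beyond the V end of the heavy locus, was at 50.2 to 62.7 RPM in α7G and 30.3 to 42.4 RPM in α7E260A:G. Such neighbours were also found at the other loci: 2 of 17 were lower at the kappa locus, and 1 of 27 was higher and 4 lower at the lambda locus. The shares of all genes are again 2.34% higher and 5.54% lower.

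CS against control in the α7G mice gave no call among the 126 genes, and 0.0% of all genes tested passed. Only 2 of the 126 had an unadjusted p under 0.05 (1.59% against 6.71% of all genes), both higher, and DESeq2 called none, where it called 0.183% of all genes. The summed immunoglobulin level was 1.11 times as high with CS as without, with 11936.8 and 11162.4 RPM in the controls and 9857.8 and 15719.2 RPM in the CS libraries, so the groups overlapped. The median log2 fold change was 0.34, beside 0.00 for all genes. The genes with the smallest p were Igkv4-74, at 3.97 and 2.67 RPM in the controls and 11.1 and 23.6 RPM with CS (log2 fold change 2.53, SE 0.78), Ighv12-3, at 1.32 and 2.24 RPM and 10.7 and 6.20 RPM (2.36, SE 0.79), and Ighv8-5, at 5.41 and 2.46 RPM and 11.99 and 20.6 RPM (2.21, SE 0.98). All 3 had an adjusted p of 0.639. When the 4 α7G libraries were fitted alone 8 genes passed, 7 higher and 1 lower with CS, these 3 among them, where 7.19% of all genes passed in that fit. In RPM, 34 of the 126 genes were higher in both CS libraries than in both controls (21.6% of all genes were) and 8 were lower (36.7%).

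CS against control in the α7E260A:G mice was a comparison with 2 control libraries that stood far apart. By edgeR no immunoglobulin gene passed, and 0.00733% of all genes tested did. An unadjusted p under 0.05 was found at 65 of the 126 genes, all lower with CS, which is 51.6% against 3.14% of all genes, and the median log2 fold change was -2.40 beside -0.02. DESeq2 called 12 genes, all lower, where it called 0.257% of all genes. In RPM, 32 of the 126 were lower in both CS libraries than in both controls (5.29% of all genes were) and 3 were higher (15.6%). Ighm had a log2 fold change of -1.98 (SE 0.68), Ighg of -4.78 (SE 1.42), Ighg2c of -4.70 (SE 1.22), Ighg1 of -4.32 (SE 1.35), Igkc of -2.99 (SE 1.03) and Igj of -3.09 (SE 1.13), each with an adjusted p near 1 (0.9997). Without the male control 78 genes passed as lower (1.04% of all genes passed), Ighm, Ighg, Ighg2c, Igkc and Igj among them. Without the female control Igkc had a log2 fold change of 0.10 and Igj of 0.44, and 2 genes passed, Ighv8-12 and Igkv6-25, both lower (0.0513% of all genes passed).

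Ighv8-12 was at 156 and 96.5 RPM in the male and female α7E260A:G controls and at 9.35 and 9.07 RPM with CS, while the α7G libraries held 42.0, 18.9, 15.4 and 27.1 RPM. Its log2 fold change with CS was -3.81 (SE 0.46, adjusted p = 0.267), and without the female control it was -3.95. Igkv6-25 was at 136 and 361 RPM in the 2 controls and 12.3 and 11.9 RPM with CS, beside 17.9 to 22.8 RPM in α7G. Its log2 fold change was -4.50 (SE 0.57, adjusted p = 0.267), and -3.35 without the female control. Igkv4-59 had the same pattern, at 78.7 and 158 RPM in the controls and 15.5 and 12.8 RPM with CS, with a log2 fold change of -3.20 (SE 0.53). In these 3 genes both α7E260A:G control libraries lay above all other libraries, the male one included, although 63 of the 126 genes were at their lowest in that library.

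Tested as an interaction, the CS responses of the genotypes gave no call among these genes by edgeR, where 0.0% of all genes tested passed, and 39 of the 126 had an unadjusted p under 0.05 (31.0% against 2.18%), all with a lower CS response in α7E260A:G. DESeq2 called 4, where it called 0.0513% of all genes. The smallest p belonged to Igkv6-25 (-4.79, SE 0.74), Igkv4-59 (-4.14, SE 0.72) and Ighv8-12 (-3.45, SE 0.60), each with an adjusted p of 0.9996. Without the female α7E260A:G control, which left that group without a replicate, the value of Igkv6-25 was -3.61.

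CS against control over both genotypes again gave no call by edgeR, with 0.0% of all genes passing, and 19 of the 126 had an unadjusted p under 0.05 (15.1% against 7.64%), 17 of them lower with CS. DESeq2 called 4, all lower, where it called 0.499% of all genes. Ighv8-12 (-2.09, SE 0.30, adjusted p = 0.469), Igkv6-25 (-2.11, SE 0.37, adjusted p = 0.564) and Ighv12-3 (1.98, SE 0.57, adjusted p = 0.636) had the smallest p, and the first and second of them passed without the female α7E260A:G control, where 0.088% of all genes passed. Without the male control 49 passed, all lower, where 0.733% did. Of the 126 genes 1, Ighv12-3, was higher in all 4 of the CS libraries and 1, Ighv2-4, was lower, where 1.84% of all genes were higher and 0.931% lower without overlap. Ighv12-3, a V gene known from B-1 cells that bind phosphatidylcholine, was at 1.32, 2.24, 0.244 and 1.64 RPM in the controls and at 10.7, 6.20, 3.99 and 2.77 RPM with CS. Ighv2-4 was at 1.10 to 22.0 RPM in the controls and 0.451 to 0.774 RPM with CS. It passed the filter only through the female α7E260A:G control library and lay near the floor with CS.

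Per coding length, the highest mean levels belonged to Ighv9-3, Ighv1-9, Ighv8-12, Ighv1-7 and Ighv1-18 at the heavy locus, to Igkv1-110, Igkv6-15, Igkv1-117, Igkv8-30 and Igkv12-46 at the kappa locus and to Iglv1 and Iglv3 at the lambda locus. How evenly the V genes were used was described for each library by the share of its leading gene and by an effective number of genes. Ighv9-3 led the heavy V genes in 5 of the 8 libraries, with 14.5 to 22.6% of their counts, Ighv1-9 led in the male α7G control (23.9%) and Ighv1-18 in the female α7G control (13.7%). In the male α7E260A:G control Ighv8-12 had 1282 of 2828 heavy V counts, 45.3% (Wilson interval 43.5 to 47.2%), against 4.64 to 7.92% in the other 7 libraries. The effective number of heavy V genes, the number of equally used genes that would give the same Shannon diversity, was 9.10 there and 13.8 to 21.5 in the others. Without the male control the mean of the α7E260A:G libraries was 19.2. With the genes of provisional names counted as well, the leading gene was the same in 3 of the 8 libraries, so the rank of the first gene is that among named genes. In the female α7E260A:G control the provisional gene Gm16891 then led with 14.2%, and in the male one Ighv8-12 still led with 20.5%. The effective number of heavy V genes was then 38.88 in the male and 44.04 in the female α7E260A:G control. In the other libraries it was 53.85 to 64.85, so both controls were less even in this wider set.

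The kappa V genes of the male α7E260A:G control were also uneven. Igkv6-25 led with 10.3% (9.71 to 10.8%) and Igkv8-30 followed with 9.16%, and the effective number of kappa V genes was 38.2. In the female α7E260A:G control Igkv1-110 had 9.99% and the effective number was 40.7, although this library had 215525 kappa V counts, the most of all. The other 6 libraries had effective numbers of 49.3 to 52.4 and were led by Igkv1-110, Igkv6-15, Igkv1-117 or, in the female α7G CS library, by Igkv5-39 with 7.97%. The 2 CS libraries of α7E260A:G, with few immunoglobulin counts, had the most even kappa usage (52.1 and 52.4). Whether a heavy and a kappa chain came from 1 clone cannot be read from these counts.

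**Figure D4:**
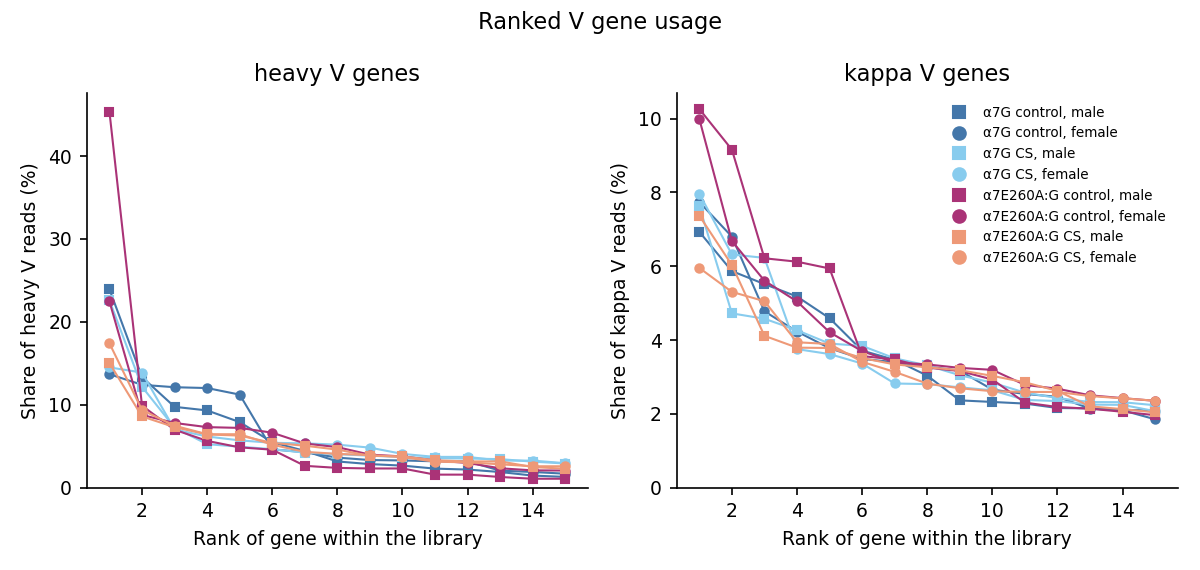
Share (%) of heavy V (left) and kappa V (right) counts against the rank of the gene in its own library, 1 line per library. The male α7E260A:G control starts at 45.3% for heavy V, above all others, and both α7E260A:G controls start near 10% for kappa V.

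Usage overlap, the part of 2 libraries' V usage that coincides, was described for all 28 pairs. For kappa V it was 80.3 to 85.4% within the 6 pairs of α7G libraries, and the 2 α7E260A:G CS libraries coincided with each other at 80.5% and with the α7G libraries at 79.2 to 84.3%. Pairs with an α7E260A:G control library coincided at 63.0 to 72.8%, and the lowest value was that of the 2 controls with each other. For the named heavy V genes it was 74.6 to 85.7% within α7G, 82.2% between the α7E260A:G CS libraries and 65.99 to 76.01% between these and α7G. The male α7E260A:G control coincided with the other libraries at 43.3 to 57.5%, and the female one with the α7G and α7E260A:G CS libraries at 52.3 to 71.8%. For kappa V both α7E260A:G control libraries lay below every pair of the other 6 libraries, and for the named heavy V genes the male one did. With the heavy V genes of provisional names counted, both did. The male one then coincided with the other libraries at 48.53 to 61.02% and the female one at 46.23 to 61.4%. The lowest pair among the other 6 libraries was at 67.89%.

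The marker lists of the cells that make antibodies were compared across the same libraries. B cell markers were low in all 4 of the α7E260A:G libraries, the female control included: the 14 genes summed to 2209.7 to 3486.2 RPM in α7G and to 1326.2 to 1642.2 RPM in α7E260A:G. Of the 14, 11 were lower in α7E260A:G without overlap (5.54% of all genes were), all but Pax5, Cd22 and Cr2, and none passed an adjusted p of 0.05. The median log2 fold change of the 14 between genotypes was -0.98 over all libraries. Cd79a, which carries the signal of surface immunoglobulin, was at 343 to 726 RPM in α7G and 194.5 to 292 RPM in α7E260A:G. The part of B cell number in the immunoglobulin levels was not tested.

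Of the 17 plasma cell markers 7 were highest in the female α7E260A:G control, the library with the immunoglobulin excess, where 7.16% of all genes tested were highest. Sdc1 and Ell2 were lowest there. The 7 were Xbp1, Sec11c, Txndc5 and the 4 with values here. That library had the highest level of Tnfrsf17 (BCMA, a receptor of plasma cells) at 21.4 RPM against 1.99 to 7.80 RPM in the others, and of Mzb1 (listed as 2010001M09Rik, a chaperone of IgM secretion) at 197 RPM against 37.9 to 104 RPM. Derl3, of the degradation of misfolded secretory proteins, was at 13.4 RPM against 2.65 to 5.70 RPM, and Eaf2 at 17.6 RPM against 1.88 to 9.48 RPM. Sdc1, which marks plasma cells but is also made by lung epithelium, was lowest there, at 44.4 RPM against 49.5 to 108 RPM. Others of the list lay within the range of the other libraries. Among them were Prdm1 (17.5 RPM against 7.56 to 26.9), Irf4 (25.2 against 9.96 to 40.8) and Pou2af1 (36.4 against 19.25 to 88.3). The 17 plasma cell genes summed to 1367.3 RPM in that library and to 850.8 to 1167.8 RPM in the others, and none of the 17 was at 0 in any library. None passed the test between genotypes or with CS.

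**Figure D5:**
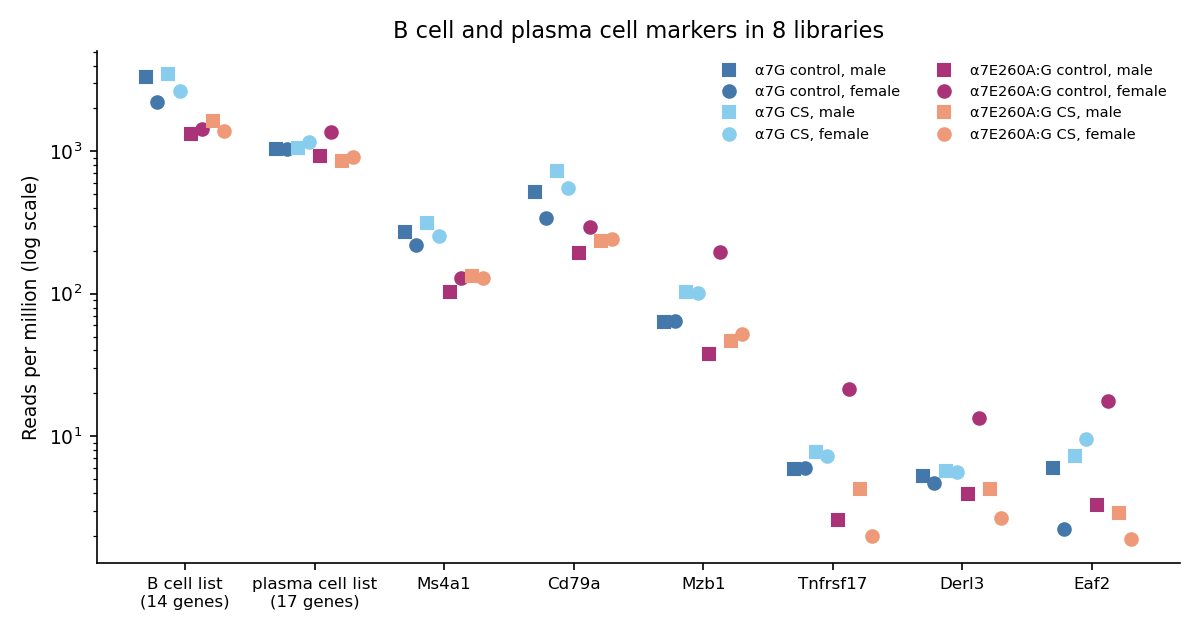
RPM (log scale) of the summed B cell and plasma cell lists and of single markers in each library. The B cell sum is lower in all 4 of the α7E260A:G libraries. Mzb1, Tnfrsf17, Derl3 and Eaf2 are 4 of the 7 genes, among the 17 of the plasma cell list, that are highest in the female α7E260A:G control.

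The genes of recombination and switching were near absent. Rag2 had no count in any library and Rag1 was at 0 in 7 of 8, and 6 of the 12 genes of that list entered the tests with none called. Among 11 genes of immunoglobulin transport and Fc receptors none was called between genotypes. Pigr, which carries IgA and IgM across epithelium, had a log2 fold change of -0.61 between genotypes (adjusted p = 0.242). Of the factors that draw or sustain B and plasma cells 6 entered the tests and none was called. The T cell list summed to 355.8 to 766.9 RPM, and to 749.9 RPM in the female α7E260A:G control. The alveolar macrophage list summed to 8902.8 to 16070.3 RPM in α7G and to 22235.9 to 37388.9 RPM in α7E260A:G, with 4 of 7 genes higher without overlap (2.34% of all genes were), and its part in the immunoglobulin levels was not tested.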

How the data were processed

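The deposited values were raw counts per gene and library. The authors mapped stranded poly(A) reads with STAR to the mouse genome NCBIM37 (mm9) and counted them over GENCODE M1 coding sequence with HTSeq. Versions and the treatment of reads that map to several places are not given in the sources used here, and the latter bears on V genes with close copies.

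Genes averaging 10 counts or more per library were tested with edgeR 4.0.16 (quasi-likelihood, TMM, 4 groups in 1 fit, Benjamini-Hochberg threshold 0.05) in R 4.3.3. RPM used the summed counts of a library, and RPKM divided RPM by the coding length. Shares and Wilson 95% intervals were computed in Python 3.11.15 with scipy 1.17.1. Alternatives were DESeq2 1.42.0, another filter, a coding length offset, the sex as a block, each genotype alone and each library left out. The edgeR script was tested on simulated counts. The members and lists were chosen with earlier results of these data known. Named were the constant genes and Igj, the leading V genes of each library and those with the highest mean RPKM, the 5 largest changes each way past the threshold (the 3 smallest p where none passed), and the genes without overlap between genotypes. Igkv4-78, Ighv11-2, Igkv4-92, Ighv2-4 and the genes that differed in share were named after their values were seen.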

Additional observations from a re-analysis of the deposited data

Results flagged for a closer look

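In a group of 4 libraries a value was taken up here when its gap to the nearest other passed Dixon's 95% critical value, which chance gives in about 1 in 20 groups, and 18 of 44 values did so. The female α7E260A:G control stood above the other 3 α7E260A:G libraries in 14 of them, which overlap, since classes hold the single genes. It had 70534.4 RPM for all immunoglobulin genes (others 5383.7 to 7081.8), 16541.3 for the heavy constant genes, 1966.4 for heavy V, 25447.0 for the kappa constant class, which is Igkc, 19693.3 for kappa V, 868.1 for lambda V and 5424.1 for the J chain class, which is Igj. Among single genes it had 7025.0 RPM of Ighm, 4063.9 of Ighg, 763.9 of Ighg1, 4688.6 of Ighg2c and 423.5 of Iglc2.

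Among the α7G libraries the female CS library had 5117.7 RPM of Igkc against 3404.2 to 3504.4 in the others. The male α7G CS library had 77.51 RPM of Ighg against 598.0 to 637.5, and an effective number of kappa V genes of 51.49 against 49.3 to 49.52.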

How the results depend on the processing

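No immunoglobulin gene passed by edgeR in any comparison, and the other settings called the following numbers. DESeq2 called 9 between genotypes, 12 for CS in α7E260A:G, 4 for the difference in CS response and 4 for CS over both genotypes. Keeping genes with at least 1 count gave 2 between genotypes and 2 for CS in α7E260A:G. The coding length offset gave 5, 1, 1 and 1 in the order of DESeq2. The 4 α7G libraries alone gave 8 for CS, where 7.19% of all genes passed. The sex as a replicate block called 0 in each comparison, and the block with the length offset 7, 5, 1 and 3. For the filter of at least 1 count and the settings with the length offset, the share of all genes called is not given. Their numbers therefore cannot be set against the general rate. The male minus female differences of the groups correlated across genes at -0.0184 to 0.587. The highest value was that between the control and CS groups of α7E260A:G, and the main fit did not include sex.

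Leaving out 1 library at a time gave 0 to 47 calls between genotypes, 0 to 78 for CS in α7E260A:G, 0 to 64 for the difference and 0 to 49 for CS over both. All calls above 0 came without 1 of the α7E260A:G controls, which left that group without a replicate, so that its spread came from the other groups. The ratio of summed immunoglobulin RPM ran from 0.5136 to 2.298 between genotypes, and from 0.0827 to 0.8237 for CS in α7E260A:G. Without the female control the sign turned for Igkc (0.1044, range -3.897 to 0.1044) and Igj (0.4396, range -4.021 to 0.4396). With all annotated V genes, a setting chosen after seeing the data, the leading heavy V gene of α7G took 6.758% on average and the leading kappa V gene 7.073%. The effective number of heavy V genes was then 54.82 in α7G and 51.93 in α7E260A:G, since more genes are counted. The latter mean covered 38.88 and 44.04 in the male and female control and 64.85 and 59.95 in the male and female CS library.

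With 2 libraries a group, 1 of each sex, sex and animal cannot be told apart.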
